A study of Mus musculus with 8 samples.

Results

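The copy number of 9 genes was followed in mouse liver tumours. Yap1, Birc2 and Birc3 lie side by side on chromosome 9, in a region known to be amplified in some mouse liver cancers. Lats1, Lats2, Stk3, Stk4, Nf2 and Sav1 encode the inhibitory arm of the Hippo pathway, of which Yap1 is the effector. The genes were chosen by name, with the probes named for them and all probes within 0.5 Mb as support. All 9 of 25851 genes named on the array were found, with 83 of 232626 probes. By symbol alone 8 were found, and Lats1 was found through an accession whose description names it.

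Genomic DNA was compared by 2-colour array comparative genomic hybridisation, in which test and reference DNA compete for short probes. The 6 tumours were hepatocellular carcinomas (HCC) of male C57BL/6 mice carrying a FEAT transgene, aged 16, 21, 20, 18.5, 22 and 12 months (tumours 1 to 6). FEAT is another name of Mettl13. The other livers were 1 non-tumour liver of a male FEAT transgenic C57BL/6 mouse of 13 months (FEAT normal liver) and 1 of a male wild-type C57BL/6 mouse of 6 months (wild-type liver). Every array carried DNA of a healthy wild-type male C57BL/6 liver of 6 months as its reference. The mouse of tumour 4 had lung metastasis, per the labels. The promoter of the transgene was not given in the sources used here. Each non-tumour group is 1 array. The mice of tumours 1 to 5 were older than those of both non-tumour livers, and for these tumours the effects of age and of the tumour cannot be told apart. The mouse of tumour 6 was older than those of wild-type liver and of the reference DNA. Against these, neither age nor the transgene can be told apart from the tumour in any of the 6. Each value is the log2 ratio of test to reference DNA, with 0 at the autosomal median of each array. On this scale, loss of 1 of 2 copies in every cell would give -1, gain of 1 copy 0.58 and a total of 4 copies 1. In DNA of bulk tissue, a change in few cells and a smaller change in many cells cannot be told apart.

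In the Hippo pathway, the kinases MST1 and MST2, encoded by Stk4 and Stk3, work with the scaffold Sav1 to activate the kinases Lats1 and Lats2. These phosphorylate YAP, the product of Yap1, and so keep this transcriptional coactivator out of the nucleus. Nf2 encodes merlin, a membrane-linked protein that promotes this signalling. In mouse liver, loss of the inhibitory arm or excess of YAP is known to cause overgrowth and tumours. Birc2 and Birc3 encode cIAP1 and cIAP2, ubiquitin ligases that restrain cell death and alternative NF-kB signalling downstream of tumour necrosis factor receptors.

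The genes were measured by unequal numbers of probes. Stk3 had 35 probes, Nf2 11, Stk4 10, Yap1 9, Lats2 8, Birc3 4, Sav1 3, Birc2 2 and Lats1 1. The 0.5 Mb neighbourhoods held between 84 probes (Lats1) and 168 probes (Stk4). Positions follow the annotation of the array, for which no genome build was given in the sources used here, and the place of probes in exons or introns was not determined. From its first to its last probe, Birc2 (NCBI gene 11797) spanned chr9:7850844-7856428, Birc3 (11796) chr9:7875026-7892764 and Yap1 (22601) chr9:7956211-8024212. Lats1 (16798) lay on chromosome 10, Lats2 (50523) at chr14:52558962-52609836 and Stk3 (56274) at chr15:34988695-35256260. Stk4 (58231) lay at chr2:163819546-163892939, Nf2 (18016) at chr11:4724316-4798152 and Sav1 (64010) at chr12:67910138-67925290.

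Some probes carry the results below and are printed as the scanner output gives them, with G and C in capitals. Both probes of Birc2 are shown because they gave opposite signs on every array but that of tumour 5. From Yap1, 2 probes of low signal and 1 of high signal are shown, because their spread across arrays differed.
Birc2 chr9:7850844-7850903: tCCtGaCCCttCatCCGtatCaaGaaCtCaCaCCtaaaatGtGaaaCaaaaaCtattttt
Birc2 chr9:7856369-7856428: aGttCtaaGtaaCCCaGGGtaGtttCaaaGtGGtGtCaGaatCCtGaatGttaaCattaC
Yap1 chr9:7956211-7956270: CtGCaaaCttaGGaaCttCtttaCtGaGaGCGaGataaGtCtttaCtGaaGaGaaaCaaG
Yap1 chr9:8012188-8012247: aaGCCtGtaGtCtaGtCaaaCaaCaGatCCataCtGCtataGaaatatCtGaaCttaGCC
Yap1 chr9:8024153-8024212: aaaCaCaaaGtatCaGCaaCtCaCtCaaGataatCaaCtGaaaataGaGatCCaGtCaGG
The G and C content of these probes lies between 35.0% and 38.3%. The motifs AGCT and GTAC, cut by AluI and RsaI and each the same on both strands, occur in 0 of 83 member probes. They occur in 0.0219% and 0.0138% of all probes on the array.

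The first comparison asked whether Yap1, Birc2 and Birc3 were gained in the FEAT tumours. No tumour was called gained at any of these genes, and tumour 5 was called lost at all of them. Calls rest on segments, stretches of a chromosome with 1 level, and a segment mean at or beyond 0.2 in either direction counts as a call. In tumour 5 the 3 genes lay in a single segment from 3000014 to 19503271 of chromosome 9, of 16.5 Mb and 1255 probes, with a mean of -0.26. Chromosome 9 as a whole had a median of -0.31 in that tumour. In tumour 5, 13.4% of all genes were called lost, and these 3 neighbouring genes share the same segment. The loss was not called at a threshold of 0.3 or with values as deposited, without centring.

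The region from the first Birc2 probe to the last Yap1 probe, of 173 kb and 26 probes, averaged -0.01, -0.01, 0.01, -0.20, -0.24 and -0.17 in tumours 1 to 6. It averaged -0.07 in FEAT normal liver and 0.03 in wild-type liver. Tumours 4, 5 and 6 lay below both non-tumour livers, and tumours 1, 2 and 3 lay between them. The standard error over probes ranged from 0.05 to 0.11, and the upper 95% limits were 0.11, 0.10, 0.19, 0.00, -0.13 and -0.03 in tumours 1 to 6. These limits treat probes as independent and leave out differences between hybridisations. The tumours averaged -0.10 ± 0.11 (SD, n = 6), against -0.02 on average in the 2 non-tumour livers. The difference of -0.08 gave p = 0.5 by exact permutation (two-sided, 28 splits), where the smallest possible p was 0.0714. Set against the rest of chromosome 9, the region differed by -0.01 between tumours and non-tumour livers (exact permutation p = 0.929).

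Around the region, within 5 Mb, no run of 10 probes averaged as much as the 0.58 of a copy gained in every cell. Within this distance, the highest median over 0.5 Mb was 0.20, 0.16, 0.18, 0.22, -0.12 and 0.22 in tumours 1 to 6. It was 0.24 in FEAT normal liver and 0.15 in wild-type liver, so that FEAT normal liver exceeded every tumour. Within the same 5 Mb, the highest mean over 10 neighbouring probes was 0.33, 0.33, 0.38, 0.39, 0.01 and 0.35 in tumours 1 to 6. By this shorter measure tumours 3 and 4 were the highest, by less than 0.1. That mean reached 0.33 in FEAT normal liver and 0.35 in wild-type liver. The segment holding the genes ended between 19.4 and 20.5 Mb in tumours 1, 2, 4 and 5 and also in wild-type liver. In tumours 3 and 6 and in FEAT normal liver, chromosome 9 was 1 segment.

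**Figure D1:**
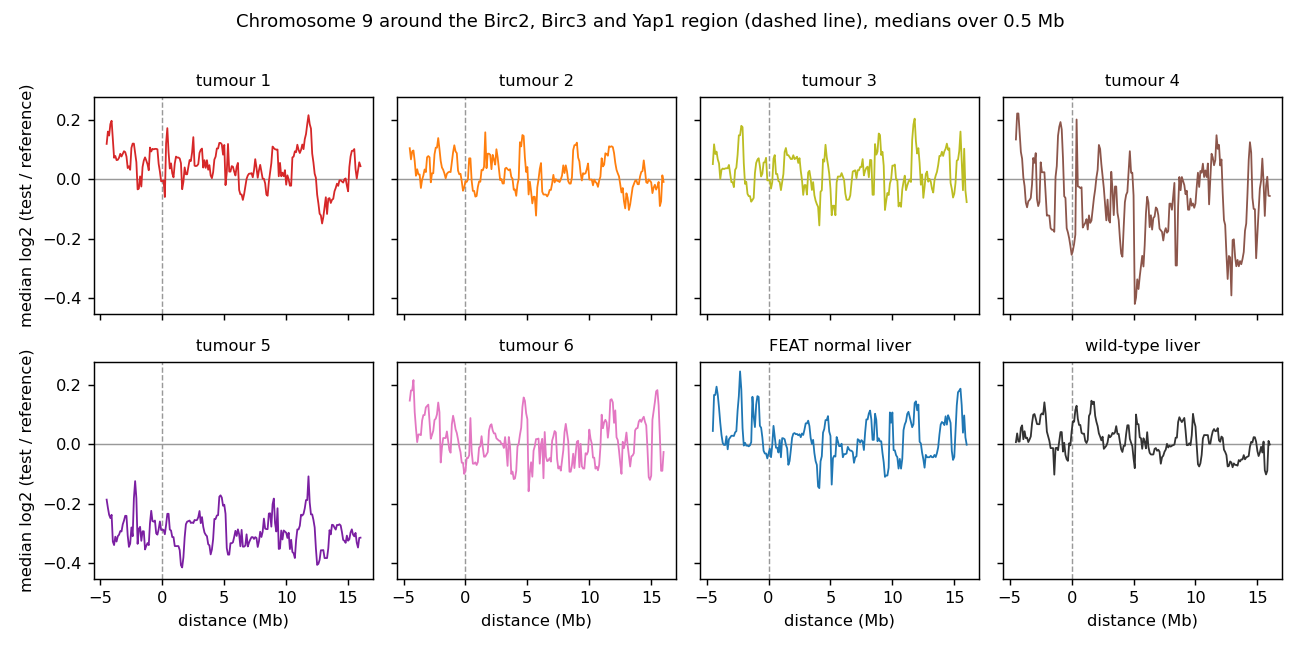
Median log2 ratio of probes (y axis) in overlapping windows of 0.5 Mb, taken every 0.1 Mb along chromosome 9, against distance in Mb from the middle of the Birc2, Birc3 and Yap1 region (x axis, dashed line at 0), 1 panel per array. Tumour 5 lies below 0 along the whole stretch, with its highest median within 5 Mb at -0.12, while the other arrays vary around 0 and tumour 4 varies most.

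Yap1 itself, by the mean of its own 9 probes, stood at -0.11, -0.05, -0.05, -0.31, -0.22 and -0.27 in tumours 1 to 6. The level was -0.20 in FEAT normal liver and 0.06 in wild-type liver. All 6 tumours lay below wild-type liver, and tumours 4, 5 and 6 also lay below FEAT normal liver. The mean of the 108 probes in its neighbourhood was 0.06, 0.03, 0.06, -0.03, -0.22 and -0.05 in tumours 1 to 6, against 0.00 in FEAT normal liver and 0.06 in wild-type liver. By the neighbourhood, only tumour 5 stood beyond -0.1. Over its own probes the tumour mean differed from that of the non-tumour livers by -0.10 (SE 0.11, limma adjusted p = 1.00), and over the neighbourhood by -0.06 (SE 0.07, adjusted p = 0.998).

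Birc2, which encodes cIAP1, stood at 0.19, 0.35, 0.08, 0.33, -0.35 and 0.08 in tumours 1 to 6 by its 2 probes. The level was 0.23 in FEAT normal liver and 0.02 in wild-type liver. These means hide a wide gap between the probes. The probe at 7850844 stood at 0.70, 0.97, 0.65, 1.20, -0.02 and 0.60 in tumours 1 to 6, at 0.64 in FEAT normal liver and at 0.29 in wild-type liver. The probe at 7856369 stood at -0.33, -0.26, -0.49, -0.55, -0.69 and -0.45 in the tumours, at -0.18 in FEAT normal liver and at -0.24 in wild-type liver. The first probe was higher in 8 of 8 arrays, by 0.53 to 1.75 with a median of 1.04. On the wild-type array its processed signal was 360 in green (test) and 300 in red (reference), against 1213 and 1457 for the second probe. In tumour 5 both probes took their lowest value of the 8 arrays. The 113 probes of the neighbourhood averaged 0.06, 0.02, 0.03, -0.06, -0.24 and -0.05 in tumours 1 to 6, against 0.00 in FEAT normal liver and 0.05 in wild-type liver.

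Birc3, which encodes cIAP2, stood at -0.13, -0.15, -0.25, -0.57, -0.51 and -0.24 in tumours 1 to 6 by its 4 probes. The level was -0.23 in FEAT normal liver and -0.25 in wild-type liver, and so below 0 on every array. Tumours 4 and 5 lay below the others by more than 0.2, although the neighbourhood of 112 probes stood at -0.05 in tumour 4 and -0.23 in tumour 5. The other tumours had neighbourhood means between -0.05 and 0.06, against 0.00 in FEAT normal liver and 0.05 in wild-type liver.

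Of the 15 probes of Birc2, Birc3 and Yap1, 3, 3, 6, 12, 10 and 11 lay below both non-tumour livers in tumours 1 to 6. Over all autosomal probes, between 25.4% and 28.2% did so in tumours 1 to 3, and 41.0%, 31.8% and 37.7% in tumours 4 to 6. Above both livers lay 4, 5, 4, 2, 1 and 1 of the 15, where the shares of all autosomal probes were 29.4%, 27.2%, 29.3%, 33.4%, 31.3% and 26.6%. In tumours 1 to 3 these counts are near the shares of all probes. Tumours 4, 5 and 6 thus had most of these probes below both livers, of which only tumour 5 had a call. Probe noise was 0.49 in tumour 4, the highest of the 8 arrays, and 0.36 in tumour 6, against 0.22 in tumour 5, and its part in these counts was not tested.

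**Figure D2:**
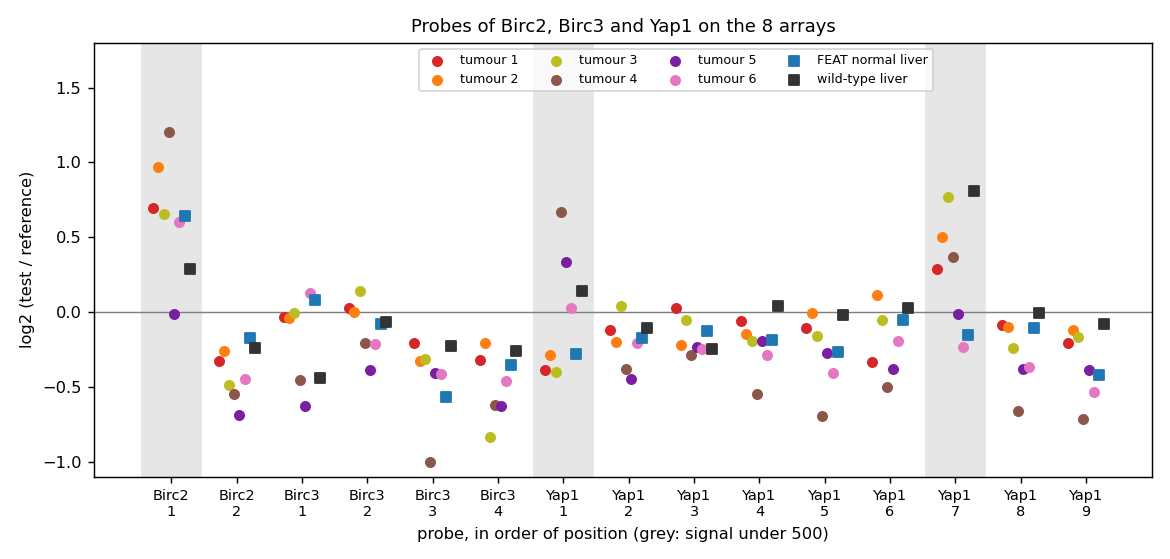
Log2 ratio (y axis) of the 2 Birc2, 4 Birc3 and 9 Yap1 probes (x axis, in order of position within each gene) on the 6 tumour arrays (circles) and the FEAT normal and wild-type arrays (squares). Grey bands mark the 3 probes with a signal under 500 on the wild-type array; the first Birc2 probe reaches 1.20 in tumour 4 while the second stays below 0 on every array.

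The signal of each probe was also set beside its level. On the wild-type array, 27.1% of autosomal probes had a processed signal under 500 in either channel. Their mean over 8 arrays had a median of 0.26, against -0.06 for the brighter probes, and 41.9% of the dim probes but 3.50% of the bright ones averaged 0.3 or more. Of the member probes, 21 were dim, and 18 of these averaged above 0, with a median of 0.29. Of the 62 bright member probes 25 averaged above 0, with a median of -0.09. Dim probes numbered 9 in Stk3, 6 in Nf2, 3 in Lats2, 2 in Yap1 and 1 in Birc2. The dim Yap1 probe at 8012188 (green 302, red 175) spread from -0.23 in tumour 6 to 0.77 in tumour 3 and stood at -0.15 in FEAT normal liver and 0.81 in wild-type liver. The dim Yap1 probe at 7956211 (green 242, red 223) spread from -0.40 in tumour 3 to 0.67 in tumour 4. The bright Yap1 probe at 8024153 (green 2566, red 2754) was below 0 on every array, from -0.72 in tumour 4 to -0.12 in tumour 2, with -0.42 in FEAT normal liver and -0.08 in wild-type liver.

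**Figure D3:**
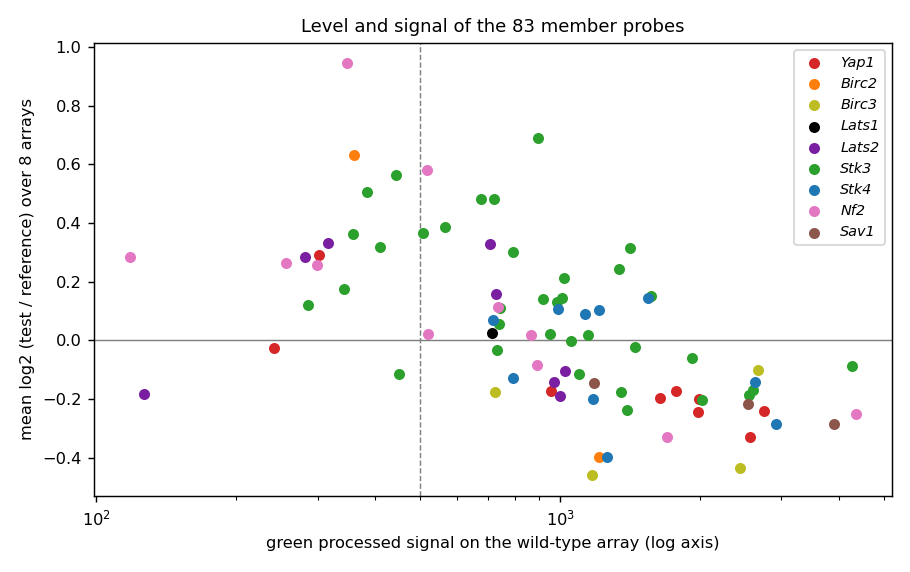
Mean log2 ratio of each of the 83 member probes over the arrays with a value (y axis) against its green processed signal on the wild-type array (x axis, log scale), coloured by gene, with a dashed line at 500. Dim probes lie mostly above 0 (median 0.29) and bright probes mostly below (median -0.09).

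Among the kinases of the pathway, Stk3, which encodes MST2, had the highest neighbourhood mean over the tumours among the 9 genes, at 0.15 ± 0.13 (SD, n = 6). It was the highest of the 9 in tumours 1 and 5, and Lats2 stood above it in the other tumours. Its 35 own probes averaged 0.29, 0.11, 0.06, 0.19, 0.32 and 0.07 in tumours 1 to 6, against 0.07 in FEAT normal liver and 0.01 in wild-type liver. The 122 probes of its neighbourhood averaged 0.31, 0.05, 0.06, 0.14, 0.31 and 0.04 in the tumours, against 0.05 in each non-tumour liver. Tumours 1 and 5 stood far above the rest, and tumour 4 lay between. Own and neighbouring probes, dim ones included, both put these 3 tumours above the others. With the 9 dim probes left out and the centring kept, the own probes averaged 0.25, 0.10, -0.0047, 0.06, 0.29 and -0.01 in tumours 1 to 6. They averaged -0.0054 in FEAT normal liver and -0.02 in wild-type liver, and tumour 4 then lay below tumour 2. Of the 35 probes, 27, 17, 13, 18, 27 and 9 lay above both non-tumour livers in tumours 1 to 6. Over all autosomal probes the shares were 29.4%, 27.2%, 29.3%, 33.4%, 31.3% and 26.6%. By this count tumours 1 and 5 stood apart, and tumour 4 was close to tumour 2.

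Stk3 was called gained in tumours 1 and 5 and in no other array. In tumour 1 it lay in a segment of 36.2 Mb and 2757 probes with a mean of 0.31, while 4% of all genes were called gained. In tumour 5 it lay in a segment of 70.6 Mb and 5314 probes with a mean of 0.28, while 14.4% of all genes were called gained. The median of chromosome 15 was 0.30 in tumour 1 and 0.24 in tumour 5, so that Stk3 followed its chromosome. At a threshold of 0.3 only the call in tumour 1 was kept, and at 0.1 Stk3 was also called gained in tumour 4. Relative to the rest of chromosome 15, its neighbourhood stood at 0.01 in tumour 1 and 0.07 in tumour 5, against 0.06 in FEAT normal liver and 0.05 in wild-type liver. Of all genes, 5.3% were gained in 2 or more tumours but in neither non-tumour liver, and Stk3 was the only one of the 9 among them. The difference between tumours and non-tumour livers was 0.10 over the neighbourhood (SE 0.08, limma adjusted p = 0.998).

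Stk4, which encodes MST1, was close to 0 on every array. Its neighbourhood of 168 probes stood at 0.01, 0.01, 0.05, -0.02, 0.04 and 0.00 in tumours 1 to 6, against -0.01 in FEAT normal liver and 0.00 in wild-type liver. Its 10 own probes ranged from -0.17 in tumour 4 to -0.01 in tumour 1, with -0.05 in FEAT normal liver and -0.04 in wild-type liver, and all of them were bright. The gene was called on no array.

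Sav1, the scaffold of these kinases, was low in tumour 1. The 120 probes of its neighbourhood averaged -0.24, 0.02, 0.04, -0.11, -0.12 and -0.03 in tumours 1 to 6, against -0.03 in FEAT normal liver and 0.01 in wild-type liver. Tumours 4 and 5 lay below both non-tumour livers as well, less far than tumour 1. The gene was called lost in tumour 1 alone, in a segment of 32.3 Mb and 3333 probes with a mean of -0.22, while 10.3% of all genes were called lost there. The median of chromosome 12 in tumour 1 was -0.24. At a threshold of 0.3, or with centring on the mode of each array, the loss was not called. Its 3 own probes averaged -0.37, -0.06, -0.06, -0.51, -0.28 and -0.21 in tumours 1 to 6, against -0.12 in FEAT normal liver and -0.11 in wild-type liver. By own probes tumour 4 was thus the lowest, where the neighbourhood stood at -0.11 and no call was made. Probe noise was highest in tumour 4, at 0.49. The 3 probes averaged 41.7% G and C, against 36.6% over all autosomal probes. The part of noise and of G and C content in this level was not tested. The probe nearest the end of the gene's span, at 67925232, stood at -0.82 in tumour 4, against -0.37 in FEAT normal liver and 0.12 in wild-type liver.

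Lats2, a kinase gene that acts on YAP, was low in tumour 1 only. Its neighbourhood of 138 probes stood at -0.19, 0.06, 0.12, 0.14, 0.07 and 0.07 in tumours 1 to 6, against 0.08 in FEAT normal liver and 0.02 in wild-type liver. The gene lay in a segment of 40.4 Mb and 4342 probes with a mean of -0.23 in tumour 1 and was called lost there. Chromosome 14 had a median of -0.26 in tumour 1. At a threshold of 0.3 this loss was not called. The 8 own probes averaged -0.09, 0.03, 0.12, 0.12, 0.04 and 0.05 in tumours 1 to 6, against 0.23 in FEAT normal liver and 0.07 in wild-type liver. In tumours 1, 2 and 4 only 7 of the 8 probes had a value. Tumour 1 was the lowest array by both measures.

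Lats1, the other YAP kinase gene, was called on no array. Its 1 probe stood at -0.14, 0.05, 0.07, 0.30, -0.06 and -0.04 in tumours 1 to 6, against 0.26 in FEAT normal liver and -0.22 in wild-type liver. On this probe the gap between the 2 non-tumour livers exceeded the range of the tumours. The 84 probes of its neighbourhood stood at -0.01, 0.06, 0.08, 0.12, -0.09 and 0.03 in the tumours, against 0.02 in FEAT normal liver and 0.01 in wild-type liver.

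Nf2, which encodes merlin, was called on no array either. Its neighbourhood of 134 probes stood at 0.01, -0.01, 0.05, 0.05, 0.02 and 0.04 in tumours 1 to 6, against 0.00 in FEAT normal liver and -0.01 in wild-type liver. The 11 own probes stood higher, at 0.19, 0.02, 0.14, 0.20, 0.20 and 0.18 in the tumours, at 0.09 in FEAT normal liver and at 0.14 in wild-type liver. These means are over the probes with a value. The dim probe at 4746864 had a value in tumours 4 and 5 only, and that at 4791231 had none in tumour 2. With the 6 dim probes left out and the centring kept, the own probes averaged 0.01, -0.08, -0.19, -0.26, -0.01 and -0.18 in the tumours, against -0.10 in FEAT normal liver and -0.05 in wild-type liver. The own-probe level above 0 was thus present on all 8 arrays, while the brighter probes alone lay below 0 on every array but that of tumour 1. The dim probe at 4791231 stood between 0.91 and 1.49 in the 5 tumours with a value, against 0.40 in FEAT normal liver and 0.48 in wild-type liver. The bright probe at chr11:4785153-4785212 matches, on the opposite strand, bases 177 to 236 of the RefSeq promoter entry of Nf2 (GRCm38.p6, chr11:4833086-4833385, minus strand). That places it from 74 to 15 bases before the start annotated for this entry. On the minus strand, the Nf2 probes at 4791231 and 4798093 lie farther before that start, so that the entry lies inside the gene's probe span. Whether it is the main start of Nf2 was not determined. The match of the probe is in capitals in the entry, printed because no other member probe fell in such an entry.
Nf2 promoter: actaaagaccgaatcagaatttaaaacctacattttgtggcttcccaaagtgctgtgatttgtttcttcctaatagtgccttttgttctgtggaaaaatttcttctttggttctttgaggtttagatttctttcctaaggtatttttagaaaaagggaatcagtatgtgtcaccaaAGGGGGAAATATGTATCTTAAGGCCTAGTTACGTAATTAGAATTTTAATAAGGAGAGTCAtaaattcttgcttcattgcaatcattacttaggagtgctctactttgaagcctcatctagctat
This probe stood at 0.25, -0.17, 0.14, -0.08, 0.10 and -0.06 in tumours 1 to 6, against 0.06 in FEAT normal liver and -0.09 in wild-type liver. Values of both signs occurred among the tumours, and no tumour came near the -1 of a copy lost in every cell. The called losses among the 9 genes had segment means of only -0.26 to -0.22. As probe noise on the arrays ranged from 0.22 to 0.49, 1 probe can neither show nor exclude a loss of that size.

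**Figure D4:**
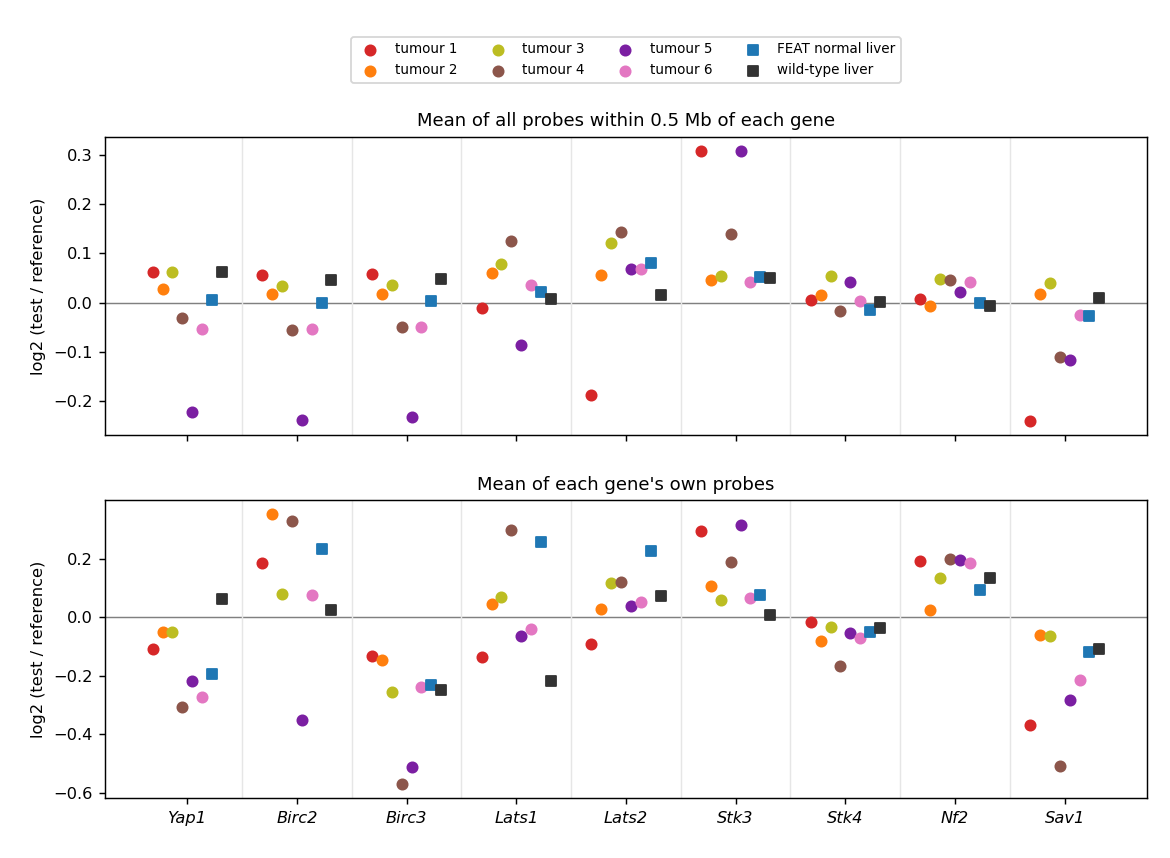
Log2 ratio (y axis) of the 9 genes (x axis) on each array, as the mean of all probes within 0.5 Mb (upper panel) and of the gene's own probes (lower panel), with tumours as circles and the FEAT normal and wild-type livers as squares. In the upper panel the points farthest from 0 are Stk3 in tumours 1 and 5, at 0.31 each, with Sav1 and Lats2 of tumour 1 and the chromosome 9 genes of tumour 5 below -0.15; the lower panel spreads more.

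Across the 9 genes, 5 were called lost and 1 gained in at least 1 tumour. Of all genes on the array, 23.9% were lost and 16.5% gained in at least 1 tumour. The 5 lost genes make up 3 segments, since Yap1, Birc2 and Birc3 share 1. All calls lay in tumours 1 and 5, and tumours 2, 3, 4 and 6 and both non-tumour livers had none. On these arrays few genes of any kind were called: 0.00774%, 0.00387%, 3.36% and 0.0155% gained in tumours 2, 3, 4 and 6, 0% in FEAT normal liver and 0.0309% in wild-type liver. Called lost were 0.0309%, 0.0232%, 0.867% and 0.0309% of genes in those tumours, 0.0426% in FEAT normal liver and 0.00387% in wild-type liver. No member was lost in 2 or more tumours but in neither non-tumour liver, as were 0.638% of all genes. The shortest called segment of a member spanned 16.5 Mb. Each array's spread over autosomal genes puts these levels in place. In tumour 1 the neighbourhood means of the middle 90% of genes ran from -0.24 to 0.14, and in tumour 5 from -0.29 to 0.29. Of the 9 genes, only Stk3 in tumours 1 and 5 and Lats2 in tumour 3 and in FEAT normal liver fell outside this range of their array, all on the high side.

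The tumours were then tested against the 2 non-tumour livers by limma over all genes. None of the 9 genes passed an adjusted p of 0.05. Their differences ranged from -0.14 (Sav1) to 0.13 (Stk3) over own probes and from -0.06 (Sav1) to 0.10 (Stk3) over neighbourhoods. Relative to the rest of the chromosome they ranged from -0.0047 (Stk3) to 0.04 (Lats2). Among all genes, 0 of 25425 passed over own probes, 0 of 25851 over neighbourhoods and 0 of 25851 relative to the chromosome (0% in each). At an unadjusted limma p under 0.05 stood 2.6%, 0.135% and 0.955% of all genes, and 0 of the 9 genes in each comparison. With 2 non-tumour arrays, shifts of the size of these differences could be missed.

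The wider pathway was described with lists of genes, of which 80 of 95 entries were found on the array. All levels of these genes are neighbourhood means. Differences are the mean of tumours minus that of non-tumour livers, with a median of 0.01 over all genes. Of 20 measured upstream and core Hippo genes, 6 were called gained and 9 called lost in 1 or more tumours, with a median difference of -0.01. The shares of all genes with such a call were 16.5% for gains and 23.9% for losses. Map4k4, a kinase that acts beside MST1 and MST2 on the Lats kinases, was gained in tumours 4 and 5 on chromosome 1, at 0.16 and 0.32, against 0.05 in FEAT normal liver and 0.00 in wild-type liver. The gain in tumour 4 was not called with GC correction of either kind, with dim probes left out, at a penalty factor of 1 or 4 or at a threshold of 0.3, while that in tumour 5 was called in each. Scrib, a polarity gene, had the highest difference (0.15), with 0.25 in tumour 1 and 0.22 in tumour 5, against -0.06 in FEAT normal liver and -0.04 in wild-type liver. Only tumour 1 was called at Scrib, which lies on chromosome 15 like Stk3. Rassf1, a gene whose product binds the MST kinases, had the lowest difference (-0.07) and was lost in tumour 5 on chromosome 9.

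Among 10 measured genes of nuclear partners in the Hippo pathway, 2 were gained and 3 lost, with a median difference of 0.00. Of all genes, 16.5% were gained and 23.9% lost. Vgll1 on the X chromosome had the highest difference (0.10) and was gained in tumour 5 at 0.27. Trp73, a relative of p53 that binds YAP, had the lowest (-0.07) and was lost in tumour 1 at -0.25. Of 14 known YAP target genes, 2 were gained and 3 lost, with a median of 0.00, near the same shares of all genes. Myc was gained in tumours 1 and 5 at 0.35 and 0.29, against 0.06 in each non-tumour liver. These are the same tumours and the same chromosome as for Stk3. At a threshold of 0.3 the Myc call in tumour 5 was lost, and at 0.1 Myc was also called gained in tumour 4. Gpc3, a cell-surface proteoglycan gene on the X chromosome like Vgll1, had the highest difference (0.09) and was gained in tumour 5 at 0.29. It stood between 0.04 and 0.18 in the other tumours, at 0.02 in FEAT normal liver and at 0.08 in wild-type liver. In these male mice the scale given for 2 copies does not hold for X genes. Axl, a receptor kinase gene, had the lowest (-0.06) and was lost in tumour 5. DNA level shows nothing of whether these genes were expressed.

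Of 20 measured partners of the cIAP proteins, 3 were gained and 2 lost, with a median difference of 0.01, against 16.5% and 23.9% of all genes. Casp8, which encodes an initiator caspase, was gained in tumours 4 and 5 at 0.24 and 0.32, against 0.03 in FEAT normal liver and 0.10 in wild-type liver. Its neighbour Cflar, which encodes an inhibitor of that caspase, stood at 0.22 and 0.33 in the same tumours, against 0.02 in FEAT normal liver and 0.08 in wild-type liver. At both genes the call in tumour 4 was lost with GC correction of either kind, with dim probes left out, at a penalty factor of 4 or at a threshold of 0.3, and that in tumour 5 was kept. Cflar had the highest difference of the list (0.10). Ripk1, a kinase gene of the tumour necrosis factor receptor complex, had the lowest (-0.07) with no call. In all 4 of these lists, 0 genes passed the adjusted limma p of 0.05, and 0 had an unadjusted p under 0.05.

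In tumour 5, the genes beside the amplicon were called lost like its members, with which they share a segment. Of 20 listed neighbours on chromosome 9, 16 were measured. All 16 were lost in tumour 5, as were 13.4% of all genes, and none was gained in any tumour. The 16 lie in the single segment that holds Yap1 and are not separate losses. Tmem123, which lies 0.061 Mb from the region, stood at -0.23 in tumour 5 and between -0.06 and 0.06 in the other tumours, against 0.02 in FEAT normal liver and 0.05 in wild-type liver. It had the lowest difference (-0.07) and Dcun1d5 the highest (-0.02). The matrix metalloproteinase genes Mmp1a, Mmp1b, Mmp3, Mmp7, Mmp8, Mmp10, Mmp12, Mmp13, Mmp20 and Mmp27 stood between -0.25 and -0.23 in tumour 5. Dync2h1, Pgr, Trpc6 and Pdgfd, within 2 Mb, stood between -0.29 and -0.25 there. In the other tumours none of these genes was called.

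Among 12418 genes with at least 3 probes on other chromosomes, the neighbourhood means most like the Birc2, Birc3 and Yap1 region over the 8 arrays belonged to Ptpro, Efcab4b and Slc25a26. All lie on chromosome 6, with Pearson's r of 0.986, 0.982 and 0.981. Ptpro stood at -0.01, -0.01, -0.01, -0.11, -0.13 and -0.11 in tumours 1 to 6, against -0.07 in FEAT normal liver and 0.00 in wild-type liver. These 3 genes were picked as the highest of many, from 8 arrays that share 1 type of reference DNA, and their r is a description.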

How the data were processed

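Test DNA was labelled with Cy3 and reference DNA with Cy5 on Agilent 244A arrays, per the labels' protocols. Scanner data were extracted with Agilent Feature Extraction 9.1.3.1, protocol CGH-v4_91, per the file headers, which here come from the wild-type array, and analysed with CGH analytics 3.4, per the labels. The deposited log2 values of all 8 arrays were used. On the wild-type array, whose scanner output alone was used, they equalled the deposited log10 ratio (red over green, per the file headers) times -3.32 plus 0.0014 (r = -1). Higher values therefore mean more test DNA. For the other arrays this direction comes from the labelled dyes. The deposited intensity values are processed signals of that array, whose deposited flags (other marks of dim, outlying or saturated spots) served an alternative. Member probes with a flag numbered 0.

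Spots of a probe were averaged, and the autosomal median of every array was set to 0, with neither loess nor quantile steps. Segments came from penalised least squares (penalty factor 2, at least 5 probes, single values kept within 3 noise SDs of the running median over 5 probes) and were called at 0.2. The tumours were compared with both non-tumour livers together with limma (version 3.58.1, run in R 4.3.3), p-values being adjusted over all genes by Benjamini-Hochberg and called at 0.05, each lone non-tumour array being assumed to vary like the tumours. Nothing in the labels says that samples shared an animal. Scripts were tested on simulated data. The sequence of the Lats1 probe is not reported here. The 9 genes, the gene lists and the tests were chosen with earlier results of these data known. Besides the 9 genes, the text names list genes called the same way in 2 or more tumours but in neither non-tumour liver, the extremes of each list, chromosome 9 neighbours within 2 Mb and the 3 most alike genes. Names and the 8 promoter entries that matched members came from RefSeq tables of GRCm38.p6, a build whose positions differ from the array's. Alternatives covered centring, GC content (within 500 kb and of each probe), flagged and dim probes, window, penalty, threshold, the liver set against and each tumour left out. The number of arrays limits the precision. Python 3.11.15 with numpy 2.4.6, pandas 2.3.3, numba 0.67.0 and matplotlib 3.10.9 was used.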

Additional observations from a re-analysis of the deposited data

Results flagged for a closer look

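Of 19 groups of 6 tumours examined, 3 held a tumour far from the others, against 0.95 expected by chance, although overlapping neighbourhoods are not independent. The neighbourhood of Birc3 was at -0.23 in tumour 5, with a median of 0.02 in the other tumours, 0.00 in FEAT normal liver and 0.05 in wild-type liver. The overlapping neighbourhoods of Birc2 and Yap1 stood at -0.24 and -0.22 in tumour 5 but were not flagged, so that the flag does not set Birc3 apart. The neighbourhood of Lats2 was at -0.19 in tumour 1, with a median of 0.07 in the other tumours, 0.08 in FEAT normal liver and 0.02 in wild-type liver. The own probes of Nf2 were at 0.023 in tumour 2, with a median of 0.19 in the other tumours, 0.09 in FEAT normal liver and 0.14 in wild-type liver. In tumour 2, the Nf2 mean lacks the dim probe at 4791231, which had no value there and stood between 0.91 and 1.49 in the other tumours. It also lacks the dim probe at 4746864, which had a value in tumours 4 and 5 only.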

How the results depend on the processing

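Of 152 comparisons of a main result with an alternative, 146 kept their side of the threshold or stayed within 1.5 times the count. Some alternatives could not move some results. The centring of an array cancels in values relative to the rest of the chromosome. As no member probe was flagged, leaving flagged probes out could not change the own-probe means of the 9 genes. The number of the 9 genes lost in at least 1 tumour was 5, but 0 at a calling threshold of 0.3, 2 with values as deposited, and between 2 (without tumour 5) and 5 with each tumour left out, with 3 without tumour 1. A threshold of 0.3 is stricter by construction. A threshold of 0.1 is looser by construction, and no call of the main setting could be lost at it. It still counts among the 11 alternative settings below. With values as deposited, tumour 5 sits higher by its autosomal median of 0.10, and only Lats2 and Sav1 stayed called lost. The calls of Yap1, Birc2 and Birc3 in tumour 5 held in 9 of 11 alternative settings, Sav1 in 9 (not with centring on the mode), Lats2 in 10, Stk3 in tumour 5 in 10 and Stk3 in tumour 1 in 11. The limma count of all genes over own probes was 0, but 13 with FEAT normal liver alone, and relative to the chromosome 0, but 22 with wild-type liver alone. None of the 9 genes was among them, and the cause was not tested. The neighbourhood difference of Lats2, -0.0025, turned to 0.010 with values as deposited, 0.041 with centring on the mode and 0.030 with wild-type liver alone. With each tumour left out it ran from -0.022 to 0.044 (without tumour 1, the low one). The difference of the Birc2, Birc3 and Yap1 region lay between -0.14 and -0.04 over all alternatives. GC correction, flagged probes left out, dim probes left out (each array then centred again) and other penalties changed no call of the 9 genes, and a threshold of 0.1 added only Stk3 in tumour 4. The dim-probe and own-probe GC alternatives were chosen after seeing the data. Probe numbers of 1 (Lats1) and 2 (Birc2, 1 of them dim) limit what their own probes can show. No paired analysis was possible because the labels give no replicate numbers and each non-tumour group has 1 array.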
